A study of Homo sapiens with 6 samples.

Results

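The 10 genes described here encode the enzymes that build fatty acids from acetyl-CoA and then lengthen and desaturate them: ACLY, ACSS2, ACACA, ACACB, FASN, SCD, ELOVL5, ELOVL6, FADS1 and FADS2. They were taken by gene symbol from a table of 60664 genes, and all 10 were present once and passed the filter on low values. They were compared between 3 libraries from 67R cells given a control siRNA (siNC) and 3 libraries from the same cells given siRNA against BCAT1 (siBCAT1), the cytosolic transaminase of branched-chain amino acids, all by lipid transfection. 67R is a line of NCI-H1975 lung adenocarcinoma cells, which carry a mutated EGFR, grown under increasing amounts of ASK120067, an EGFR inhibitor, until they resisted it. Both groups share this resistant background and, by their labels, differ in the siRNA alone. The time between transfection and RNA extraction, and whether the culture came from 1 clone, are not given in the sources used here, and they do not say of these libraries in particular that the 3 of a group came from separate cultures, so the p-values measure the spread between libraries, which may be technical.

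Fatty acid synthesis in the cytosol starts from citrate, which ACLY cleaves to acetyl-CoA, or from acetate, which ACSS2 activates. Acetyl-CoA carboxylase makes malonyl-CoA, and fatty acid synthase uses it to build palmitate. ELOVL enzymes then add carbon units in the endoplasmic reticulum, and SCD places a double bond in saturated chains. FADS1 and FADS2 desaturate polyunsaturated chains, which ELOVL5 lengthens. Many of these genes are known targets of the SREBP transcription factors, and the pathway is often active in tumor cells.

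BCAT1, the target of the siRNA, was at 29.8 to 42.7 TPM in the siNC libraries and at 7.10 to 8.78 TPM in the siBCAT1 libraries. TPM is an abundance scaled for gene length and library total, so the levels of different genes can be compared per length within a library. The libraries summed to 992512 to 995593 TPM and had 23152 to 25043 genes above 0, and their depth in reads is unknown. Of 14286 genes tested, 27.1% had an adjusted p under 0.05 (limma on log2(TPM + 1), Benjamini-Hochberg adjustment), with 16.7% higher and 10.4% lower in siBCAT1 cells. The split depended on the scaling, since 61.6% of the called genes were higher as deposited, 54.6% with median-ratio scaling and 52.3% with quantile normalization. The number of genes called was 3865, and it was 2318 without siNC replicate 1, 2503 without siNC replicate 3, 2411 without siBCAT1 replicate 1, 2444 without siBCAT1 replicate 2 and 2501 without siBCAT1 replicate 3. All 5 lung lineage markers (NKX2-1, NAPSA, SFTPB, SFTPC and SFTPA1) stayed under 1 TPM in every library. The 7 epithelial markers summed to 2556 to 2951 TPM in siNC and to 1649 to 1937 TPM in siBCAT1 cells, and 6 of the 7 were called lower, whose part in the results below was not tested. The 9 immune, endothelial and fibroblast markers summed to 282 to 311 TPM in siNC and 249 to 297 TPM in siBCAT1 cells, with 5 of the 9, CD3E and PECAM1 among them, under 1 TPM in every library. Most of that sum was COL1A2 (236 to 249 TPM in siNC), and within the list CD68 was called higher while PDGFRB and COL1A1 were called lower, whose part was not tested either. A smaller amount of RNA per cell and a smaller share of cells with that RNA cannot be told apart in such bulk libraries.

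Start regions of 3 members are shown because the results below turn on them. ELOVL5 and ACLY were called lower, and ACACA was the member with a positive log2 fold change. The sequences come from RefSeq (GRCh38.p14), run 5′ to 3′ from 250 bases before to 50 bases after an annotated start, and carry in capitals every match, on either strand, to the motifs searched. These were CCAAT, which is the core bound by the factor NF-Y, then GGGCGG, which is the box bound by Sp1, then the E-box CACGTG, and lastly TCACNCCAC, which is a form of the sterol regulatory element. Neighbouring matches can overlap, as they do in the ACACA region.
ELOVL5, chr6:53348901-53349200, minus strand: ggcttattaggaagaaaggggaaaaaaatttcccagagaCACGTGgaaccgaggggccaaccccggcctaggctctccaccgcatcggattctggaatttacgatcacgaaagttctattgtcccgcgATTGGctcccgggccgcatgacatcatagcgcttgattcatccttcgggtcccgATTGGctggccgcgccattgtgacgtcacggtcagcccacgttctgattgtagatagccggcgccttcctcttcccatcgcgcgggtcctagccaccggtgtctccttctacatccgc
ACLY, chr17:41918973-41919272, minus strand: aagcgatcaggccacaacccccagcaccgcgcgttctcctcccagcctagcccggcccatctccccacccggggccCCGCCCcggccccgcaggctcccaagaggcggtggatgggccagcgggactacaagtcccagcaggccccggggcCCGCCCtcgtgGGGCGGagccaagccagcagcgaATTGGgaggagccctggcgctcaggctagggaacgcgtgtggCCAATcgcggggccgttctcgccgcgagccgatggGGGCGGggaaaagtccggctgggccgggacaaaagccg
ACACA, chr17:37406787-37407086, minus strand: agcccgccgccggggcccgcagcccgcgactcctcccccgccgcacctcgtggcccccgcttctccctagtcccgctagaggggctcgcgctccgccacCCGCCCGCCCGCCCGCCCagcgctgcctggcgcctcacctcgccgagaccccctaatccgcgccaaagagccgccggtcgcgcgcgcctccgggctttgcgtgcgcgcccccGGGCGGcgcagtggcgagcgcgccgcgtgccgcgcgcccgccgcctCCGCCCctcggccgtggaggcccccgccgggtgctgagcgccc
The ELOVL5 region held 2 CCAAT words and a CACGTG. The ACLY region held 2 CCAAT and 4 GGGCGG words. The ACACA region at the start furthest upstream held 6 GGGCGG words and none of the others. Another ACACA start region, not shown (37359047 to 37359346), held 1 CCAAT and 7 GGGCGG words. A further ACACA region (37299718 to 37300017) held 2 CCAAT words and no GGGCGG. Among 15 start regions of 9 members in the table, 9 held CCAAT, 11 held GGGCGG, 1 held CACGTG and 0 held TCACNCCAC. Over all 35116 regions of this length the shares were 34.6%, 45.0%, 7.26% and 1.13%. Regions of 1 gene can overlap, as those of ACLY do, so the same words can be counted more than once. Counted by member, 7 of the 9 held CCAAT, 8 held GGGCGG, 1 held CACGTG and 0 held TCACNCCAC. A member with several regions can hold a word in any of them. The shares above are per region, so they are no background for the counts by member. A match of letters does not show that a factor is bound there, and the files do not say which start is used in these cells.

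In siBCAT1 cells 9 of the 10 members had a negative log2 fold change and 1, ACACA, a positive one. Of the 10, 2 fell with an adjusted p under 0.05, ELOVL5 and ACLY, where 10.4% of all genes were called lower. None was called higher, where 16.7% of all genes were. At an unadjusted p under 0.05 from limma there were 6 lower members, where the share of all genes was 15.9%, and 1 higher member, ACACA. In either direction 39.7% of all genes had such an unadjusted p. The median log2 fold change of the members was -0.32, beside 0.04 for all genes tested. The groups did not overlap for 4 members that were lower (ELOVL5, ACLY, ACSS2 and FASN) and 1 that was higher (ACACA). Among all genes 44.1% did not overlap, 18.0% being lower and 26.1% higher. For 1 gene alone, the smallest p that exact permutation of 3 against 3 libraries allows is 0.1 (two-sided). The count of 2 members called lower was sensitive to the libraries and was 1 without siNC replicate 1, siNC replicate 3, siBCAT1 replicate 2 or siBCAT1 replicate 3. In those 4 fits 5.57% to 6.87% of all genes were called lower.

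In siNC cells ACLY had the highest level of the 10, followed by FASN, ELOVL5 and SCD. ELOVL6, FADS2, ACACA, FADS1 and ACSS2 followed at means of 32.7 to 35.3 TPM, and ACACB was last at 2.77 TPM. The ranges of ELOVL5 and SCD overlapped, as did those of each neighbouring pair from ELOVL6 to ACSS2, so the order within these sets does not exceed the spread between libraries. In siBCAT1 cells SCD stood above ELOVL5 and the 2 ranges did not overlap. ACACA, FADS1, FADS2 and ELOVL6 then followed in that order, and the range of ELOVL6 overlapped those of FADS1, FADS2 and ACSS2.

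In what follows, the 3 values of a group are given in the order of replicates 1, 2 and 3, and SE is the standard error of the log2 fold change. The enzyme of the first step fell by a small amount. ACLY, ATP citrate lyase (ENSG00000131473, chromosome 17, 41866908 to 41930542, GRCh38), read 185, 176 and 172 TPM across the siNC libraries and 161, 150 and 149 TPM across the siBCAT1 libraries. Each siBCAT1 library was under each siNC library. The mean went from 178 ± 6.74 to 153 ± 6.81 TPM (SD, n = 3 each), 13.7% lower, or -0.21 on the log2 scale (SE 0.06, limma adjusted p = 0.0331). This call was lost without siNC replicate 1 (adjusted p = 0.0933 from limma), siNC replicate 2 (0.05005), siNC replicate 3 (0.0545), siBCAT1 replicate 2 (0.0973) or siBCAT1 replicate 3 (0.0934). Over all 15 alternatives its adjusted p lay between 0.00760 and 0.0973.

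ACSS2, the acetyl-CoA synthetase of the cytosol and nucleus, read 38.0, 28.5 and 31.5 TPM across the siNC libraries and 26.9, 25.1 and 22.2 TPM across the siBCAT1 libraries. The groups did not overlap, with siNC replicate 1 furthest from the others. Mean levels were 32.7 ± 4.89 TPM without and 24.7 ± 2.35 TPM with the BCAT1 siRNA (SD, n = 3 each), and the difference of -0.38 on the log2 scale (SE 0.12, limma adjusted p = 0.0578) did not pass the threshold. Without siNC replicate 2 it was -0.47 and the adjusted p was 0.0381 from limma, and the adjusted p ranged from 0.0199 to 0.168 over the 15 alternatives.

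The carboxylases that make malonyl-CoA gave opposite signs. ACACA (ENSG00000278540, chromosome 17, 37084988 to 37406818), the cytosolic form that feeds synthesis, read 35.8, 31.9 and 34.6 TPM across the siNC libraries and 44.5, 37.7 and 37.8 TPM across the siBCAT1 libraries. Every siBCAT1 library was above every siNC library, and replicate 1 was the highest in each group. Its log2 fold change was 0.22 (95% confidence interval 0.01 to 0.43, adjusted p = 0.115 from limma) and was not past the threshold, and once GC content and gene length were corrected for it was 0.29 with an adjusted p of 0.0410 from limma. It was smaller without siBCAT1 replicate 1 (0.14) and under quantile normalization (0.13), and the adjusted p ranged from 0.0281 to 0.268 over the 15 alternatives.

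ACACB, the form at the mitochondrial surface whose malonyl-CoA restrains fatty acid import for oxidation, read 3.48, 2.18 and 2.66 TPM across the siNC libraries and 1.22, 1.78 and 2.24 TPM across the siBCAT1 libraries. The groups overlapped narrowly, since siNC replicate 2 lay under siBCAT1 replicate 3. Its log2 fold change was -0.46 with a wide 95% confidence interval of -0.97 to 0.05 (adjusted p = 0.158 from limma). At this low level the pseudocount shrinks the change, and with a pseudocount of 0.1 the log2 fold change was -0.65.

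FASN, fatty acid synthase, which builds palmitate on a single large polypeptide, read 136, 137 and 154 TPM across the siNC libraries and 124, 110 and 127 TPM across the siBCAT1 libraries. The groups did not overlap, and replicate 3 was the highest of each. Mean levels were 142 ± 10.2 TPM without and 120 ± 9.60 TPM with the BCAT1 siRNA (SD, n = 3 each), and the difference of -0.24 on the log2 scale (SE 0.08, limma adjusted p = 0.0697) was not past the threshold. The GC content of the longest FASN transcript was 65.3%, the highest of the 10 members. After the correction for GC content and length the log2 fold change was -0.06, and under quantile normalization it was -0.34 with an adjusted p of 0.0181 from limma.

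Of the 10 members, ELOVL5 had the log2 fold change furthest from 0. ELOVL5 (ENSG00000012660, chromosome 6, 53267398 to 53349179), the elongase that lengthens polyunsaturated chains, read 119, 122.7 and 113 TPM across the siNC libraries and 68.4, 65.9 and 66.4 TPM across the siBCAT1 libraries. The lowest siNC library was well above the highest siBCAT1 library, and the spread within each group was small (coefficient of variation 4.12% in siNC and 2.003% in siBCAT1 cells). The mean fell from 118 ± 4.87 to 66.9 ± 1.34 TPM (SD, n = 3 each), 43.4% lower, or -0.81 on the log2 scale (SE 0.06, limma adjusted p = 0.000267). Among all genes tested 4.06% had a lower log2 fold change. The fall of ELOVL5 was past the threshold under all 15 alternatives, with log2 fold changes from -0.90 to -0.78 and adjusted p-values up to 0.00440.

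ELOVL6, which lengthens palmitate to stearate, read 36.4, 38.8 and 30.7 TPM across the siNC libraries and 31.5, 22.9 and 20.1 TPM across the siBCAT1 libraries. The groups overlapped because siBCAT1 replicate 1 lay above siNC replicate 3. Its log2 fold change was -0.51 (95% confidence interval -0.90 to -0.11, adjusted p = 0.0617 from limma). Without siBCAT1 replicate 1 it was -0.69, with an adjusted p of 0.0238 from limma, against a range of 0.0238 to 0.180 over the 15 alternatives.

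Among the desaturases no member passed the threshold in the main fit. SCD, stearoyl-CoA desaturase, which makes oleate and palmitoleate, read 130, 92.5 and 118 TPM across the siNC libraries and 107, 77.7 and 86.4 TPM across the siBCAT1 libraries. It varied most among the abundant members, replicate 2 was the lowest of each group, and the groups overlapped. Its log2 fold change was -0.32 (95% confidence interval -0.68 to 0.04, adjusted p = 0.1698 from limma). With the replicate number as a block its adjusted p was 0.0179 from limma, against a range of 0.0179 to 0.425 over the 15 alternatives. The annotation lists pseudogene copies, SCDP1 for SCD and FADS2P1 for FADS2, and reads shared with them could affect these values.

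FADS2, the delta-6 desaturase, read 37.7, 29.99 and 36.2 TPM across the siNC libraries and 30.3, 27.8 and 24.6 TPM across the siBCAT1 libraries. Of the siNC libraries, only replicate 2 lay within the siBCAT1 range. The log2 fold change was -0.32 (95% confidence interval -0.59 to -0.05, adjusted p = 0.0814 from limma), and without siNC replicate 2 it was -0.41 with an adjusted p of 0.0344 from limma (range over the alternatives 0.0301 to 0.232).

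FADS1, the delta-5 desaturase, read 36.6, 31.6 and 33.7 TPM across the siNC libraries and 37.2, 33.2 and 30.7 TPM across the siBCAT1 libraries. The groups covered nearly the same range. Its log2 fold change was -0.01 (95% confidence interval -0.24 to 0.21, adjusted p = 0.934 from limma), and its sign turned without siNC replicate 1 (0.04) or siBCAT1 replicate 3 (0.05). FADS1 and FADS2 lie on opposite strands of chromosome 11 and their annotated spans overlap (61799625 to 61829318 and 61792980 to 61867354), and whether reads were assigned by strand is not given in the sources used here.

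The libraries of replicate number 1 tended to be high for these genes. siNC replicate 1 was the highest of its group for 7 of the 10 members and siBCAT1 replicate 1 for 8 of the 10. Summed over the members, the level was 757, 691 and 726 TPM in siNC and 633, 552 and 567 TPM in siBCAT1 replicates 1, 2 and 3, and the groups did not overlap. ELOVL5 alone made up 16.4% ± 1.22 of this sum in siNC and 11.5% ± 0.600 in siBCAT1 cells (SD, n = 3 each). ACACA made up 4.71% ± 0.0759 and 6.84% ± 0.178, and FADS1 4.69% ± 0.133 and 5.77% ± 0.324, both without overlap between the groups.

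Ratios within a library set the members against each other, and are given without a test. ACACA stood at 10.29, 14.65 and 13.004 times the TPM of ACACB in siNC and at 36.4, 21.2 and 16.9 times in siBCAT1 replicates 1, 2 and 3. The siBCAT1 ratios were all above the siNC ratios, and replicate 1 was furthest out. FADS1 to FADS2 was 0.972, 1.05 and 0.932 in siNC and 1.23, 1.195 and 1.25 in siBCAT1 replicates 1, 2 and 3, so the desaturases were near parity in siNC cells and FADS1 exceeded FADS2 in each siBCAT1 library. The ratios of ELOVL5 to ELOVL6 (3.16 to 3.69 in siNC and 2.17 to 3.31 in siBCAT1) and of ACLY to ACSS2 (4.86 to 6.19 and 5.97 to 6.70) overlapped. Another pair of ratios was chosen after the values were seen. FASN to ACACA was 3.79 to 4.45 in siNC and 2.80 to 3.37 in siBCAT1 cells, and SCD to ELOVL5 was 0.753 to 1.09 and 1.18 to 1.57.

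Of the transcription factors known to drive these genes, both SREBP genes did not pass the threshold. SREBF1 read 95.6, 68.4 and 73.8 TPM across the siNC libraries and 79.5, 79.7 and 58.1 TPM across the siBCAT1 libraries, a log2 fold change of -0.13 (95% confidence interval -0.51 to 0.25, adjusted p = 0.598 from limma). The groups overlapped widely. SREBF2 (-0.17, adjusted p = 0.399), its escort SCAP (-0.03, 0.839), the retention factor INSIG1 (-0.21, 0.508) and the liver X receptor gene NR1H3 (-0.02, 0.949) did not pass it, with log2 fold changes and adjusted p-values from limma in parentheses. SREBPs are controlled mainly by cleavage of the protein, which RNA levels do not measure. NR1H2, the other liver X receptor gene, rose from 46.1 ± 0.465 to 61.7 ± 4.17 TPM (SD, n = 3 each, 0.41 on the log2 scale, limma adjusted p = 0.00609), and its partner gene RXRA fell from 28.4 ± 1.02 to 19.2 ± 0.990 TPM (-0.55, 0.00282). TRIB3, a pseudokinase induced by stress, rose by a log2 fold change of 0.60 (adjusted p = 0.00694 from limma). MLXIPL, which encodes the glucose-responsive factor ChREBP, was at 0.37 to 0.56 TPM in siNC and 0.13 to 0.22 TPM in siBCAT1 cells, under the filter of a mean of 1 TPM. Of 20 tested regulators in all, 2 were called higher and 1 lower.

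The genes around the pathway were counted from lists of its neighbouring steps, beside the 27.1% called among all genes. Of 13 genes that supply citrate, acetyl-CoA and NADPH, 5 rose and 2 fell, with a median log2 fold change of 0.19. ME1, malic enzyme, rose by 0.77 and IDH1, the cytosolic NADPH-producing isocitrate dehydrogenase, fell by 0.63, on the log2 scale. Of 13 other elongation and desaturation enzymes, 3 fell and 0 rose at an adjusted p under 0.05 in limma (median -0.14). FADS3, a paralog of FADS1 and FADS2, fell from 133 ± 14.2 to 76.3 ± 5.03 TPM (SD, n = 3 each, -0.79 on the log2 scale, limma adjusted p = 0.00143), and ELOVL3 fell by 0.73 on the log2 scale.

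Of 14 genes of fatty acid activation and uptake, 3 rose and 2 fell (median 0.03). DBI, the acyl-CoA binding protein, fell from 326 ± 29.1 to 146 ± 7.81 TPM (SD, n = 3 each, -1.15 on the log2 scale, limma adjusted p = 0.000237) and the lipoprotein receptor gene VLDLR fell by 1.03, whereas ACSL4, which activates polyunsaturated fatty acids, rose by 0.46, on the log2 scale. Of 24 genes of glycerolipid assembly and lipid droplets, 3 rose and 4 fell (median -0.18), led by LPCAT1 (0.86) and MGLL (0.66) upward and GPAT3 (-0.54) and the lipase gene PNPLA2 (-0.50) downward. Of 22 genes of mitochondrial fatty acid oxidation, 8 rose and 4 fell (median 0.21). ECI1, an enoyl-CoA isomerase, rose from 19.4 ± 0.471 to 48.6 ± 4.68 TPM (SD, n = 3 each, 1.28 on the log2 scale, limma adjusted p = 0.000235) and the carnitine carrier gene SLC25A20 rose by 0.69, while the carnitine palmitoyltransferase genes CPT1B (-1.07) and CPT1A (-0.51) fell, on the log2 scale.

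Of 21 cholesterol synthesis enzymes, which share SREBP control with the members, 2 rose and 6 fell (median -0.19), with TM7SF2 (-0.86) and HSD17B7 (-0.79) furthest down and PMVK (0.64) and FDPS (0.43) furthest up. Of 9 genes of mitochondrial fatty acid synthesis, 1 rose, LIPT1 (0.67), and 0 fell at an adjusted p under 0.05 in limma. Several genes named from the lists were weak. Means in siNC and siBCAT1 cells were 2.87 and 1.15 TPM for TM7SF2 and 3.50 and 1.18 TPM for VLDLR. They were 4.12 and 2.12 TPM for ELOVL3, 3.75 and 6.66 TPM for LIPT1 and 6.72 and 2.67 TPM for CPT1B.

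Single libraries moved several of these counts, and they moved the calls over all genes as well. Over all genes 16.7% were called higher with all libraries, 15.9% without siNC replicate 2, and 10.04% to 11.1% without any other library. The shares called lower were 10.4%, 10.01% and 5.57% to 6.87% in the same order. The 8 oxidation genes called higher became 4 without siNC replicate 1, siNC replicate 3, siBCAT1 replicate 2 or siBCAT1 replicate 3, and 3 without siBCAT1 replicate 1. The 4 glycerolipid genes called lower became 0 without siNC replicate 1 or siNC replicate 3 and 1 without siBCAT1 replicate 1 or siBCAT1 replicate 2. The 6 cholesterol genes called lower became 2 without siNC replicate 1, siNC replicate 3, siBCAT1 replicate 2 or siBCAT1 replicate 3. Without siNC replicate 1, the count of lower supply genes was 1, that of lower elongation and desaturation genes 1, that of higher activation and uptake genes 1 and that of higher mitochondrial synthesis genes 0. Without siNC replicate 3, lower supply genes numbered 1, lower regulators 2 and higher mitochondrial synthesis genes 0. Without siNC replicate 2, 1 elongation or desaturation gene was called higher and 0 mitochondrial synthesis genes. The latter count was also 0 without siBCAT1 replicate 1 or siBCAT1 replicate 3, and without siBCAT1 replicate 3 the count of higher activation and uptake genes was 1.

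The 3′ UTRs of the members were searched for the words that pair with the seed of the BCAT1 siRNA. The methods of the study give the name siBCAT1, which the labels of these libraries carry, to its siBCAT1-2. The 7-base word of siBCAT1-2, TTGAGCA, was found in 2 of the 10 members, ELOVL6 and FADS1, where 11.3% of 11676 tested genes with a 3′ UTR held it. Its 6-base form TGAGCA was found in 5 members, ELOVL5 among them, and in 33.4% of genes. ACLY held neither form. For the study's other siRNA, siBCAT1-1, the 7-base word AGACAAT was found in SCD alone of the members and in 8.91% of genes. Its 6-base form GACAAT was found in 6 members (ACACA, ELOVL5, ELOVL6, FADS1, FADS2 and SCD) and in 20.8% of genes. These are matches of letters on the transcript strand, the 6-base form lies inside its 7-base word, and the part of siRNA seeds in the changes was not tested.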

How the data were processed

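The data are RNA-seq libraries of 67R cells, 3 siNC and 3 siBCAT1, grouped by their labels. The authors prepared stranded mRNA libraries, and per the submitters' processing notes and the paper's methods used fastp, HISAT2 and StringTie on GRCh38 (versions and annotation not given in the sources used here). They deposited 1 TPM value per gene and library beside a gene length. The unit was read from the values. TPM holds no counts, so depth is unknown and the precision rests on the spread between 3 libraries. Any 2 libraries differed in at least 98.6% of tested genes.

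The 14286 of 60664 genes averaging 1 TPM or more entered a limma model of log2(TPM + 1) (limma 3.58.1 under R 4.3.3, functions lmFit and eBayes, the latter with trend). P-values were two-sided and were adjusted over all tested genes by Benjamini-Hochberg, and the threshold was 0.05. A fold change on this scale understates the change of weak genes. The script was tested on simulated data first. Error values are SD over 3 libraries.

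The members and lists were chosen with earlier results of these data known. The genes named are the members, BCAT1, 7 regulators and, from each list, up to 2 called genes with the largest rise and 2 with the largest fall. Some genes that this rule names are not reported here. Genes, 3′ UTRs (1 principal transcript per gene) and GC content (available for 99.0% of tested genes) came from GENCODE 29 on GRCh38, in which all 10 members matched by identifier, and start regions from RefSeq (GRCh38.p14), which matched 9. Alternatives were no filter, a filter at 5 TPM, a smaller pseudocount (0.1), median-ratio scaling, quantile normalization, eBayes without trend, a block for the replicate number, a loess fit (span 0.5) that removed GC content and length effects, that fit with the block, and each library left out. Python 3.11.15, pandas 2.3.3 and matplotlib 3.10.9 were used.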

Additional observations from a re-analysis of the deposited data

How the results depend on the processing

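Of the 10 members, only ELOVL5 was past the threshold in all 15 alternatives, and each member except FADS1 had the same sign in every alternative run. The number of members called lower, 2 as designed, was 1 with no filter and 1 with eBayes without trend, 4 with a mean of at least 5 TPM, 5 with median-ratio scaling, 6 with quantile normalization and 1 to 3 with a library left out. With a mean of at least 5 TPM, median-ratio scaling and quantile normalization, 12.5%, 11.8% and 13.1% of all genes tested were called lower. The share was 3.01% with no filter, 9.43% with eBayes without trend and 5.57% to 10.01% with a library left out. The number called higher was 1, ACACA (0.29), with the GC content and length correction, with or without the block. Of all genes 17.2% were called higher with this correction alone and 18.65% with the block added. ACLY, at a log2 fold change of -0.21, was not past the threshold with no filter or with eBayes without trend, and ranged from -0.25 to -0.18 with a library left out. Past the threshold came ACSS2 (-0.38) and ELOVL6 (-0.51) with a mean of at least 5 TPM, ACSS2 (-0.41), ELOVL6 (-0.54) and FADS2 (-0.35) with median-ratio scaling, ACSS2 (-0.46), FASN (-0.34), ELOVL6 (-0.57) and FADS2 (-0.39) with quantile normalization, and ELOVL6 (-0.48) with the GC content and length correction. With a library left out, ACSS2 ranged from -0.47 to -0.27, ELOVL6 from -0.69 to -0.37, FADS2 from -0.41 to -0.24 and FADS1 from -0.085 to 0.051, reversing its sign without siNC replicate 1 (0.04) and siBCAT1 replicate 3 (0.051). Over all genes 3865 were called, 2567 with no filter and 2318 to 3706 with a library left out. Of the values for the neighbouring lists, 311 stayed within 1.5 times the count or within the spread of the median and 49 moved further.

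The replicate numbers are shared by both groups. The deviations of same-numbered libraries from their group means correlated at 0.084, 0.10 and 0.12 over the tested genes for numbers 1, 2 and 3. Those of differently numbered libraries correlated at -0.081 to -0.013, so every library correlated best with its own number. The labels do not say what a shared number means, and the main fit did not take the numbers as pairs. This choice affected the count of members called. With the replicate number as a block, 6 members were called lower, among them ACSS2 (-0.38), FASN (-0.24), SCD (-0.32) and ELOVL6 (-0.51). With that block 4568 genes were called in all, and 12.6% of all genes were called lower. With the block and the GC content and length correction together, 5 members were called lower, among them ACSS2 (-0.38), SCD (-0.31) and ELOVL6 (-0.48), and ACACA was called higher (0.29). Of all genes 12.1% were then called lower and 18.65% higher. The cause of these shifts was not tested. Without read counts, the counting error of weak genes such as ACACB is unknown.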
